A study of Homo sapiens with 4 samples.

Results

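Autophagy is the process by which a cell encloses part of its own cytoplasm in a membrane sac and delivers it to the lysosome for breakdown. The genes of its core machinery were followed at the mRNA level in U251 cells, an established human glioblastoma (GBM) cell line, after knockdown of PRMT3, an enzyme that methylates arginine residues of proteins. The rule that chose the genes reads their symbols and not their counts, though it was written with earlier results of these data known: every ATG gene, the ULK kinases with RB1CC1, the class III PI3-kinase genes with BECN1, AMBRA1 and UVRAG, the WIPI family, VMP1, TECPR1, the LC3 and GABARAP genes, and the cargo receptors SQSTM1, NBR1, OPTN, TAX1BP1 and CALCOCO2. Of the 15575 genes with a count in the table, 44 met this rule, and 42 of these had enough reads to be tested. The remaining pair, ATG9B with 6, 2, 4 and 2 reads in the 4 libraries and MAP1LC3B2 with 9, 1, 5 and 3, fell below the filter. MAP1LC3B2 is a near-identical copy of MAP1LC3B, so reads cannot be divided between them with certainty.

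Total RNA was sequenced from 2 libraries of cells that carried lentiviral control shRNA (Ctrl) and 2 of cells that carried shRNA against PRMT3 (PRMT3-KD), with 72 h of knockdown. All 4 libraries came from the same cell line, and both groups carried a lentiviral hairpin. The control titles also hold the word pGreen, which the labels do not explain, and the PRMT3 hairpin used is not given in the sources used here. Because nothing states that libraries of a group were separate cultures, the p-values measure the spread between these libraries, which may be technical.

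Autophagy begins when the ULK1 kinase complex activates the class III PI3-kinase complex around BECN1, which marks a membrane with the lipid PI3P. WIPI proteins bind that lipid, ATG9 vesicles and the ATG2 lipid transfer proteins enlarge the membrane, and a ubiquitin-like conjugation system (ATG7, ATG3, ATG10 and the ATG12-ATG5-ATG16L1 complex) attaches the small ATG8 proteins, LC3 and GABARAP, to it. Cargo receptors such as SQSTM1 (p62) bind cargo on one side and ATG8 proteins on the other, and are themselves broken down with the cargo. Glioma cells are known to use autophagy under shortage of nutrients and oxygen. The libraries measure mRNA and not the flux of autophagy.

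Libraries held between 24804250 and 29756313 counted reads. Levels are given as read counts per 1000000 reads (CPM) after scaling of the library totals with edgeR's TMM factors, and differences as log2 fold changes of PRMT3-KD over Ctrl with their standard error (SE) and a p-value adjusted by the Benjamini-Hochberg method over all genes tested, from edgeR's quasi-likelihood test. Reads of the targeted gene numbered 535 and 535 in Ctrl and 77 and 45 in PRMT3-KD libraries, so that PRMT3 fell by 3.08 on the log2 scale (SE 0.314, adjusted p = 0.0177). Without Ctrl library 1 or Ctrl library 2 the adjusted p was 0.0963 or 0.0512. Of the GBM and astroglial markers, VIM, NES, CD44, SOX2 and EGFR were present in all libraries, whereas GFAP was at 13.1 and 14.3 CPM in Ctrl and at 1.26 and 5.39 CPM in PRMT3-KD, S100B lay between 1.93 and 2.82 CPM, and CHI3L1 had 2 reads in all. Epithelial markers summed to at most 0.317 CPM, neuronal markers to between 13.97 and 19.3 CPM, and microglial and blood cell markers to between 29.5 and 33.4 CPM. Of the last, CD68 was at 24.0 to 29.8 CPM, CSF1R at 5.27 and 5.42 CPM in Ctrl and 2.48 and 3.45 CPM in PRMT3-KD, and the leukocyte gene PTPRC at most at 0.246 CPM. The endothelial list (VWF, CDH5) summed to between 6.26 and 7.40 CPM in 3 libraries and to 27.9 CPM in PRMT3-KD library 2, where CDH5 had 722 reads. The part of these differences in the results below was not tested. In bulk RNA, a change in a portion of the cells and a smaller change in every cell cannot be told apart.

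The spread within groups was unequal, which bears on every test here. The chi-square per degree of freedom between the 2 Ctrl libraries was 1.41 over 13156 genes, where counting error alone gives a value near 1, and 66.0 over 13148 genes between the 2 PRMT3-KD libraries. Among the 42 autophagy genes, the median absolute log2 difference between libraries of a group was 0.05 in Ctrl and 0.19 in PRMT3-KD. In 13 of the 42, the 2 PRMT3-KD libraries fell on either side of the Ctrl mean. This count was not taken over all genes, so it cannot show whether autophagy genes differ from others in this.

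Regulatory sequence is shown first, for some of the genes. MITF and TFEB, transcription factors that bind the 6-base E-box CACGTG, are known to drive autophagy and lysosome genes, and this word was searched in the 250 bases before the start of each gene's canonical transcript (GENCODE 44 lifted to GRCh37, the assembly also called hg19). Its reverse complement is the same word, so a single search covered both strands. The promoters of SQSTM1 and MAP1LC3B are printed because these are the cargo receptor with the larger increase and the ATG8 gene that rose, and those of ATG5 and ATG3 because they hold the word, in capitals.
SQSTM1 promoter, chr5:179247655-179247904, plus strand: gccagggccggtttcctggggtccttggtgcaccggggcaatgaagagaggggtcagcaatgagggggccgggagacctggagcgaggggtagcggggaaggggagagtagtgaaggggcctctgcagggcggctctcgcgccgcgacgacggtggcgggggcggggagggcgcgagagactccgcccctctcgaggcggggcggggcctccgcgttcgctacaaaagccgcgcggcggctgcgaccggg
MAP1LC3B promoter, chr16:87425692-87425941, plus strand: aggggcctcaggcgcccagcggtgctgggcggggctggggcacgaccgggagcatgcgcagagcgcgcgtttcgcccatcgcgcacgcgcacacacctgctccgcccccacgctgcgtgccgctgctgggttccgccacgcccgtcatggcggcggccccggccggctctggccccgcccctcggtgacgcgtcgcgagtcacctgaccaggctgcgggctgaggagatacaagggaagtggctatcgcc
ATG5 promoter, chr6:106773636-106773885, minus strand: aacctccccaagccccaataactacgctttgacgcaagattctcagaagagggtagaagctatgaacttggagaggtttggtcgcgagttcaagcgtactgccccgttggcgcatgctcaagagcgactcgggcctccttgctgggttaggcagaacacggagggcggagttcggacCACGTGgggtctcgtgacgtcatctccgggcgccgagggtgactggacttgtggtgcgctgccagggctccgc
ATG3 promoter, chr3:112280810-112281059, minus strand: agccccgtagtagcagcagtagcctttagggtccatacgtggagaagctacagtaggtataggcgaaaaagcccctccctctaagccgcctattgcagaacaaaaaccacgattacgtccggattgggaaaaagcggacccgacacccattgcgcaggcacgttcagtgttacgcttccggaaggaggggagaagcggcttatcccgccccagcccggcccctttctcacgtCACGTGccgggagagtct
The E-box stood in 3 of the 42 autophagy promoters (7.14%), those of ATG3, ATG5 and ATG14, and in 8.84% of the 13118 promoters of all genes tested. None of the 7 genes that passed the test below had it in this window, and the 3 that did had log2 fold changes of 0.25 (ATG3), -0.26 (ATG5) and -0.07 (ATG14) with adjusted p from 0.0966 to 0.794. A match is a description of these letters only, and so is its absence.

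SQSTM1, TAX1BP1, RB1CC1, AMBRA1, TECPR1 and MAP1LC3B rose in PRMT3-KD cells, and ATG2A fell. SQSTM1 changed most, to 2.43-fold of its Ctrl level, and the remaining increases lay between 1.30-fold for MAP1LC3B and 1.59-fold for RB1CC1. These 7 genes came from 6 of the 8 steps into which the machinery was divided, and the conjugation enzymes and the ATG4 proteases supplied none. Of the 42 genes, 7 (16.7%) had an adjusted p under 0.05 in edgeR's quasi-likelihood test, against a background of 17.3% of all 13172 genes tested. By direction, 6 were higher (14.3%, background 8.39%) and 1 was lower (2.38%, background 8.91%). SQSTM1, RB1CC1 and ATG2A also passed a 1.5-fold change, which makes 7.14% of the genes against a background of 10.9%. ATG2A passed that fold narrowly, and the number past it was 2 with DESeq2, with upper-quartile scaling and with DESeq2 size factors. The share of called genes was therefore close to that of all genes, and it is individual members that the following paragraphs describe.

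Both PRMT3-KD libraries stood above both Ctrl libraries for 20 of the 42 genes (47.6%), where the background was 33.3%, and below both for 6 (14.3%), where it was 33.8%. The median log2 fold change of the 42 genes was 0.14, with 27 above 0 and 15 below, and that of all genes tested was 0.005. Taken separately, PRMT3-KD library 1 gave a median of 0.11 and library 2 of 0.17. The 35 genes that did not pass had a median of 0.08 and adjusted p from 0.0519 to 0.989.

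**Figure D1:**
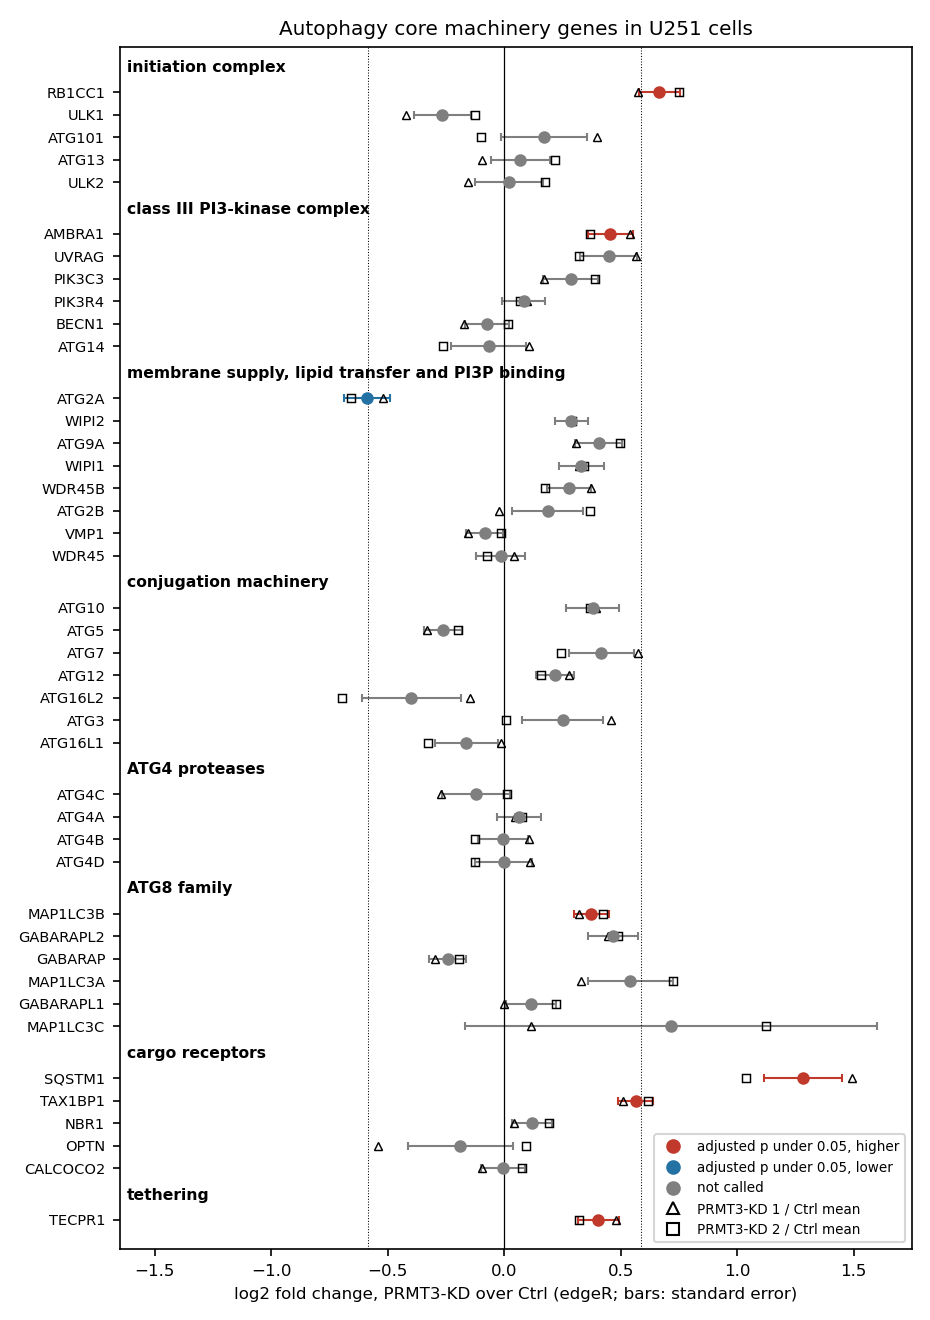
Log2 fold change of PRMT3-KD over Ctrl (x axis) for the 42 tested autophagy genes, grouped by step (y axis), as edgeR's estimate with its standard error (filled circles and bars) and for PRMT3-KD library 1 (triangles) and library 2 (squares) against the Ctrl mean; dotted lines mark a 1.5-fold change. SQSTM1 stands farthest right at 1.28 and ATG2A farthest left at -0.59. For 13 genes, a count not taken over all genes, the triangle and the square lie on either side of the Ctrl mean.

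How many genes passed depended on the tool and on single libraries. DESeq2 called 8 higher and 1 lower, adding ATG9A and GABARAPL2, against its own background of 22.0% of 12661 genes in either direction, and limma-voom with a variance weight per group called 6 higher and 1 lower, against a background of 21.7%. Scaling by library totals alone left RB1CC1, SQSTM1 and TAX1BP1 as the higher genes and ATG2A as the lower one, against a background of 13.1%. An edgeR model with a term for replicate number left the same 3 higher genes and 0 lower, where 1656 of all 13172 genes were called. It ended the calls of ATG2A, AMBRA1, TECPR1 and MAP1LC3B. Without Ctrl library 1 or without Ctrl library 2, 0 autophagy genes were called by edgeR, against backgrounds of 0.00% and 0.197% of all genes. At an unadjusted p under 0.05 there were 5 (11.9%) and 4 (9.52%), against 13.8% and 14.3% of all genes. Without PRMT3-KD library 1, 22 were called higher and 8 lower (71.4% in all), and without PRMT3-KD library 2, 18 and 9 (64.3%), against a background of 67.2% in both fits, where the spread is estimated from the near-equal Ctrl libraries alone.

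The initiation complex joins the ULK kinases with ATG13, ATG101 and RB1CC1 (FIP200), a large scaffold protein. RB1CC1 (ENSG00000023287, chr8:53535018-53658403, minus strand) had 2365 and 2351 reads in Ctrl and 3232 and 4086 in PRMT3-KD libraries. On the CPM scale these were 85.4 and 85.5 against 127 and 144, so both PRMT3-KD libraries lay well above both Ctrl libraries. RB1CC1 rose by a log2 fold change of 0.67 (SE 0.0898, adjusted p = 0.0219), and no other gene's exons overlap its own. The kinase genes themselves did not pass the test. ULK1 was at 56.5 and 56.8 CPM in Ctrl and at 42.4 and 51.9 CPM in PRMT3-KD (log2 fold change -0.27, adjusted p = 0.195). ULK2, ATG101 and ATG13 had log2 fold changes of 0.02, 0.17 and 0.07, and in each of these the groups overlapped. In all 3 the 2 PRMT3-KD libraries lay on either side of the Ctrl mean.

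Of the 6 members placed in the class III PI3-kinase step, AMBRA1 alone was called. AMBRA1 (ENSG00000110497, chr11:46417964-46615675, minus strand), an adaptor that joins BECN1 to ubiquitin ligases, had 40.5 and 42.4 CPM in Ctrl and 60.3 and 53.4 CPM in PRMT3-KD, and rose by 0.46 (log2, SE 0.0970, adjusted p = 0.0455). UVRAG, a BECN1 partner of the endosomal form of the complex, gave a similar log2 fold change of 0.45 but did not pass (SE 0.122, adjusted p = 0.0723). The catalytic subunit PIK3C3 (VPS34) and its scaffold PIK3R4 (VPS15) had values of 0.29 and 0.08, both with PRMT3-KD libraries above Ctrl. BECN1 itself was at 81.4 and 79.7 CPM in Ctrl and 71.5 and 81.5 CPM in PRMT3-KD, with overlapping groups (log2 fold change -0.07, SE 0.0934). The same held for ATG14, the subunit that targets the complex to the forming autophagosome (-0.07, SE 0.161).

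Among the genes for membrane supply, lipid transfer and PI3P binding, ATG2A fell and its relative ATG2B did not pass. ATG2A (ENSG00000110046, chr11:64662018-64684681, minus strand) encodes a lipid transfer protein that feeds the growing membrane from the endoplasmic reticulum. Its reads numbered 856 and 889 in Ctrl and 560 and 569 in PRMT3-KD libraries, or 30.9 and 32.3 CPM against 22.0 and 20.0 CPM. The groups were far apart relative to either spread, and ATG2A fell by 0.59 on the log2 scale (SE 0.0993, adjusted p = 0.0310). In edgeR's test with a replicate block its adjusted p was 0.0519. ATG2B had 43.7 and 43.9 CPM in Ctrl and 43.1 and 56.6 CPM in PRMT3-KD, so a single PRMT3-KD library stood above Ctrl (log2 fold change 0.19, adjusted p = 0.426). The difference between the changes of ATG2A and ATG2B was not tested.

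In 4 further genes of this step both PRMT3-KD libraries stood above Ctrl, and none of them passed edgeR's test. The lowest adjusted p belonged to the PI3P effector WIPI2 (log2 fold change 0.29, SE 0.0700, adjusted p = 0.0584), the lipid scramblase ATG9A (0.41, SE 0.101, adjusted p = 0.0610) and WIPI1 (0.33, SE 0.0960, adjusted p = 0.0814). ATG9A had 109 and 119 CPM in Ctrl and 141 and 160 CPM in PRMT3-KD and was called by DESeq2. Its exons overlap another annotated protein-coding gene on the same strand by up to 1073 bases, so part of the ATG9A count is uncertain. The fourth, WDR45B (WIPI3), gave 0.28, and WDR45 (WIPI4) -0.02, the latter with overlapping groups. VMP1, an endoplasmic reticulum scramblase, was the second gene of the set in level per kilobase and had a log2 fold change of -0.08 (adjusted p = 0.500). Its locus also holds the microRNA gene MIR21, whose hairpin lies within a VMP1 exon of the annotation.

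None of the 7 genes of the conjugation machinery passed edgeR's test, against a background of 17.3% of all genes. At an unadjusted p under 0.05 in that test, 2 were higher and 1 was lower, where 37.6% of all genes tested had such a p. DESeq2 and limma-voom called 0 each, against backgrounds of 22.0% and 21.7%. The E1-like enzyme ATG7 was at 30.0 and 31.8 CPM in Ctrl and 46.0 and 36.6 CPM in PRMT3-KD, so both PRMT3-KD libraries were above Ctrl (log2 fold change 0.42, SE 0.139, adjusted p = 0.107). ATG7 exons overlap those of VGLL4 on the opposite strand by up to 1597 bases, and VGLL4 rose by 1.08 (adjusted p = 0.0191). Whether the counting used strand is not given in the sources used here, so VGLL4 reads in the ATG7 count cannot be set apart. The E2-like enzymes ATG10 and ATG3 gave 0.38 (adjusted p = 0.0847) and 0.25 (adjusted p = 0.354), and ATG12, the ubiquitin-like partner of ATG5, gave 0.22. ATG5 was at 72.7 and 74.4 CPM in Ctrl and 58.5 and 64.0 CPM in PRMT3-KD, below Ctrl in both (-0.26, SE 0.0829, adjusted p = 0.0966). ATG16L1, which directs the complex to the membrane, had -0.16, and its relative ATG16L2 had -0.40 (SE 0.214, adjusted p = 0.249).

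The ATG4 proteases trim ATG8 proteins before conjugation and release them from membrane afterwards. The range of their 4 genes was the narrowest of the 7 steps that hold several genes, with log2 fold changes from -0.12 (ATG4C) to 0.06 (ATG4A). Standard errors lay between 0.0961 and 0.144. By edgeR 0 of them passed, also at an unadjusted p under 0.05, and DESeq2 and limma-voom called 0. Of all genes tested, 17.3% passed edgeR's test and 37.6% had an unadjusted p under 0.05, so 0 of 4 genes says little. ATG4B, the most active of the proteases, was at 51.8 and 52.5 CPM in Ctrl and at 56.1 and 47.8 CPM in PRMT3-KD, with 1 library on each side.

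Of the ATG8 family, MAP1LC3B rose and the other members did not pass the test. MAP1LC3B (ENSG00000140941, chr16:87417559-87438385, plus strand), the gene of LC3B, had 4117 and 4132 reads in Ctrl and 4744 and 5697 in PRMT3-KD libraries. These are 149 and 150 CPM against 187 and 201 CPM, a log2 fold change of 0.37 (SE 0.0745, adjusted p = 0.0408). The groups did not overlap, and the gene has 1 annotated pseudogene and a 60-base overlap with FBXO31 on the opposite strand, whose own log2 fold change was 0.08. GABARAPL2 (GATE-16) was at 32.9 and 28.4 CPM in Ctrl and 41.8 and 43.0 CPM in PRMT3-KD, a larger log2 fold change of 0.47 that just missed the threshold (SE 0.107, adjusted p = 0.0519) and that DESeq2 called. MAP1LC3A went from 8.09 and 8.83 CPM to 10.6 and 13.97 CPM (0.54, SE 0.181, adjusted p = 0.107). For both genes the PRMT3-KD libraries stood above the Ctrl libraries.

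GABARAP was the exception in sign among the 6 family members. It had 101 and 96.3 CPM in Ctrl and 80.5 and 86.6 CPM in PRMT3-KD, below Ctrl in both libraries (log2 fold change -0.24, SE 0.0802, adjusted p = 0.104). GABARAPL1 had 42.2 and 43.7 CPM in Ctrl and 42.9 and 50.1 CPM in PRMT3-KD, with overlapping groups (0.12, adjusted p = 0.484). MAP1LC3C was all but silent in these cells, with 2 and 14 reads in Ctrl and 8 and 18 in PRMT3-KD, and its log2 fold change of 0.72 has an SE of 0.883.

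Per kilobase of canonical transcript, which allows levels of different genes to be set side by side, GABARAP led the family in Ctrl with 74.95 ± 2.70 CPM per kb (SD, n = 2), followed by MAP1LC3B with 69.6 ± 0.538, GABARAPL2 with 31.5 ± 3.26, GABARAPL1 with 22.8 ± 0.553, MAP1LC3A with 8.78 ± 0.550 and MAP1LC3C with 0.241 ± 0.256. In PRMT3-KD, MAP1LC3B came first with 90.2 ± 4.55 CPM per kb and GABARAP second with 63.3 ± 3.27. The family sum was 208 ± 4.06 in Ctrl and 235 ± 14.03 in PRMT3-KD. GABARAP supplied 36.5% and 35.6% of that sum in Ctrl and 27.1% and 26.8% in PRMT3-KD, and MAP1LC3B 32.8% and 34.1% against 38.7% and 38.2%. The log2 ratio of MAP1LC3B to GABARAP was -0.15 and -0.06 in Ctrl and 0.51 in both PRMT3-KD libraries. This ratio was chosen after its values were seen, and with 2 libraries in each group the smallest two-sided p of an exact permutation test is 0.333. GABARAP also shares exon sequence with another annotated protein-coding gene on the same strand, so that part of its count is uncertain. The order in Ctrl rests on the transcript lengths used, 1319 bases for GABARAP and 2147 for MAP1LC3B. In CPM, MAP1LC3B was above GABARAP in both groups, with means of 149 against 98.9 in Ctrl and 194 against 83.5 in PRMT3-KD.

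**Figure D2:**
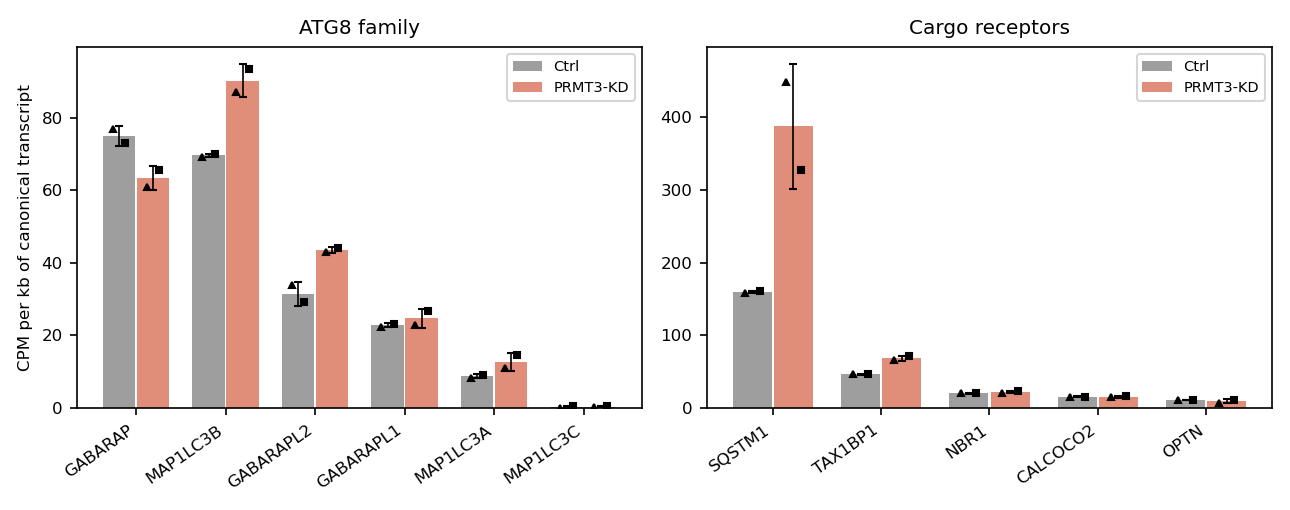
Levels in CPM per kb of canonical transcript (y axes, from 0) of the ATG8 family (left) and the cargo receptors (right) in Ctrl (grey) and PRMT3-KD (red) libraries; bars are means of 2 libraries, error bars SD, triangles and squares libraries 1 and 2. On this scale MAP1LC3B and GABARAP change order between the groups, and SQSTM1 rises from 159 to 387 CPM per kb with its 2 PRMT3-KD libraries at 448 and 327.

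The cargo receptors held the largest change. SQSTM1 (ENSG00000161011, chr5:179233398-179265078, plus strand), whose protein p62 gathers ubiquitin-marked cargo, had 12436 and 12529 reads in Ctrl and 32306 and 26365 in PRMT3-KD libraries. These are 449 and 456 CPM against 1272 and 928 CPM. The 2 Ctrl libraries were nearly equal, the 2 PRMT3-KD libraries were apart from each other, and both were over 2-fold above Ctrl. SQSTM1 rose by 1.28 (log2, SE 0.169, adjusted p = 0.0212), and it was the single autophagy gene past 2-fold. Its exons overlap MRNIP (C5orf45 in the table) by up to 803 bases and MGAT4B by up to 105 bases on the opposite strand, and 1 pseudogene is annotated. The mean level of MRNIP was 21.8 CPM in Ctrl and 19.0 in PRMT3-KD libraries, low beside SQSTM1. MGAT4B rose from 203 to 294 CPM (log2 fold change 0.54, adjusted p = 0.0208). Since the use of strand in counting is not given, reads of MRNIP and MGAT4B in the SQSTM1 count cannot be set apart. Their part in its change was not tested.

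TAX1BP1 (ENSG00000106052, chr7:27778950-27884183, plus strand), a ubiquitin-binding receptor related to CALCOCO2, had 4413 and 4344 reads in Ctrl and 5729 and 6916 in PRMT3-KD libraries, or 159 and 158 CPM against 226 and 243 CPM. It rose by 0.56 (SE 0.0756, adjusted p = 0.0215), just under 1.5-fold, with no overlap of the groups. Its relative CALCOCO2 (NDP52) was at 55.0 and 57.3 CPM in Ctrl and 52.6 and 59.2 CPM in PRMT3-KD and had a log2 fold change of -0.01 (SE 0.0933). NBR1, which partners p62, had 92.3 and 95.6 CPM in Ctrl and 96.8 and 107 CPM in PRMT3-KD (0.12, SE 0.0852, adjusted p = 0.373). OPTN, a receptor for mitochondria and bacteria, was at 37.3 and 37.01 CPM in Ctrl and at 25.5 and 39.6 CPM in PRMT3-KD. The 2 PRMT3-KD libraries thus lay on either side of Ctrl for OPTN, and its log2 fold change of -0.19 (SE 0.225) stands for neither of them.

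SQSTM1 was also the most abundant of the 42 genes per kilobase, at 159 ± 1.66 CPM per kb in Ctrl (SD, n = 2) and 387 ± 85.5 in PRMT3-KD. TAX1BP1 followed among the receptors with 46.3 ± 0.278 and 68.5 ± 3.71, and NBR1, CALCOCO2 and OPTN lay between 9.35 and 22.1 in the group means. The sum of the 5 receptors went from 252 ± 2.29 to 503 ± 76.1 CPM per kb. SQSTM1 made up 63.1% and 63.2% of it in Ctrl and 80.5% and 72.8% in PRMT3-KD, and its share was thus higher in both PRMT3-KD libraries but unequal between them. At the low end of the 42 genes in Ctrl were ULK2 with 1.99 ± 0.0709, PIK3C3 with 1.92 ± 0.0527 and MAP1LC3C.

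TECPR1 (ENSG00000205356, chr7:97843936-97881544, minus strand), which tethers autophagosomes to lysosomes, had 70.5 and 69.0 CPM in Ctrl and 97.4 and 87.2 CPM in PRMT3-KD. It rose by 0.40 (log2, SE 0.0876, adjusted p = 0.0473), the value nearest the threshold among the 7. The groups did not overlap, and the call was lost with scaling by library totals alone (adjusted p = 0.103) and when genes with as little as 1 read in any library were kept (adjusted p = 0.0526). The call was also lost with a replicate block. Exons of BHLHA15 lie opposite TECPR1 over 834 bases. In total, 25 of the 44 genes overlap an exon of another gene in the annotation, 23 of them on the opposite strand, and 4 of these were among the 7 called.

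**Figure D3:**
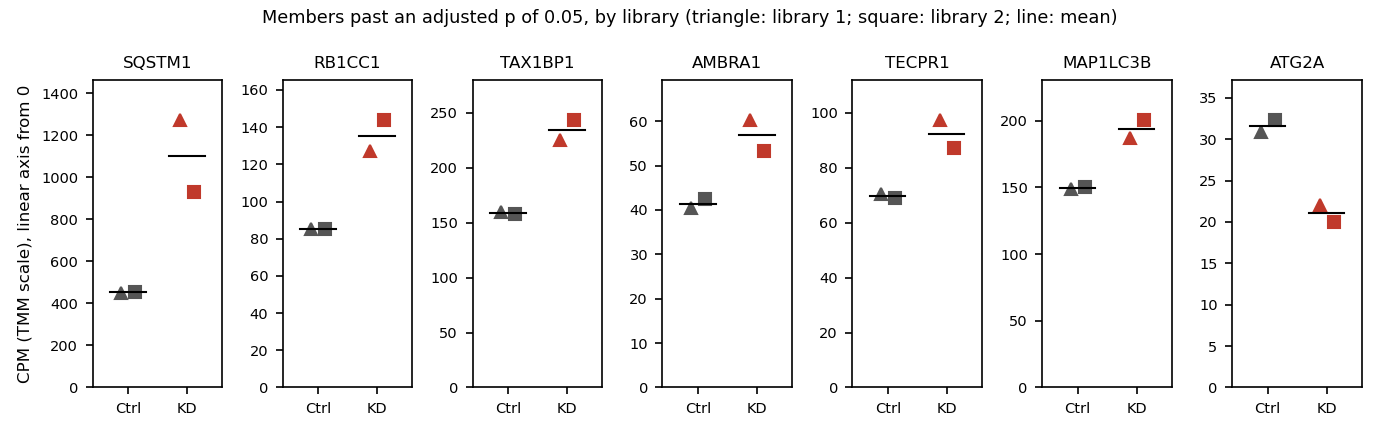
Normalized level (CPM on the TMM scale, y axes from 0, a scale per panel) of the 7 autophagy genes with an adjusted p under 0.05 in 2 Ctrl (grey) and 2 PRMT3-KD (red) libraries; triangles are library 1, squares library 2, lines group means. In every panel the 2 groups are apart, and the PRMT3-KD libraries of SQSTM1, at 1272 and 928 CPM, are farther from each other than its Ctrl libraries at 449 and 456 CPM.

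The word CAGCTCA was searched in 3′ UTRs because an earlier scan of these data had singled it out as a word whose carriers were lower in PRMT3-KD cells, so its value over all genes is a description and no independent result. It stood in the 3′ UTR of 6 of the 42 autophagy genes (14.3%) and of 17.5% of the 12619 genes tested that have a 3′ UTR in their canonical transcript. The 6 were ULK1 with 2 copies, PIK3C3 with 3, and ULK2, ATG14, ATG7 and ATG4B with 1 each, and none of the 7 called genes was among them. The sites of ULK1, the gene with the lowest log2 fold change of the 6, and of ATG7, with the highest, are printed with the word in capitals.
ULK1 site, chr12:132406050-132406076, plus strand: ggcctccctgCAGCTCAcggggcagaa
ULK1 site, chr12:132406700-132406726, plus strand: tatttttatgCAGCTCAttttttcttt
ATG7 site, chr3:11597437-11597463, plus strand: ggctgtcgttCAGCTCAtgggagcttc
The 6 carriers had a median log2 fold change of 0.006 and the other autophagy genes one of 0.18. Over all genes tested, the medians were -0.11 with the word and 0.03 without it.

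Around the core machinery, 72 further genes were listed by their textbook roles, and 70 of them were tested. Of these, 13 passed the test (18.6%, background 17.3%), 8 higher (11.4%, background 8.39%) and 5 lower (7.14%, background 8.91%). Of the 13, 5 also passed 1.5-fold, or 7.14% of those tested against a background of 10.9%. DESeq2 called 11 higher and 4 lower, and limma-voom 12 higher and 3 lower, against their own backgrounds of 22.0% and 21.7% in either direction. Their median log2 fold change was 0.18, where that of all genes was 0.005. Both PRMT3-KD libraries stood above both Ctrl libraries for 38 of the 70 (54.3%) and below for 20 (28.6%), against backgrounds of 33.3% and 33.8%.

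Of 9 modulators of the BECN1 and ULK complexes, 1 passed (background 17.3%). This was NRBF2, a subunit of the class III PI3-kinase complex, with a log2 fold change of 0.52. Of 15 genes of autophagosome maturation and fusion, 2 were higher (background 8.39%) and 2 lower (background 8.91%). EPG5, a tether that joins autophagosomes to late endosomes and lysosomes, was at 19.5 and 19.4 CPM in Ctrl and 11.0 and 10.3 CPM in PRMT3-KD and fell by 0.87 on the log2 scale (SE 0.104, adjusted p = 0.0198). TGFBRAP1, a subunit of an endosomal tethering complex, fell by 0.56, a call that limma-voom did not give. RUBCN (Rubicon), an inhibitor of the UVRAG form of the PI3-kinase complex, rose by 0.53, and PLEKHM1, an adaptor for lysosomal fusion, by 0.41. The genes of tethers and fusion adaptors thus moved both ways, TECPR1 and PLEKHM1 up and EPG5 down. The SNARE genes STX17, SNAP29 and YKT6, whose proteins drive the fusion itself, had log2 fold changes of 0.61, 0.55 and 0.51 and adjusted p from 0.0676 to 0.0733. Each had both PRMT3-KD libraries above both Ctrl libraries and was called by DESeq2 and by limma-voom.

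Of 20 genes of nutrient and energy control, 2 were higher (background 8.39%) and 2 lower (background 8.91%). The PRKAG2 gene of an AMPK regulatory subunit was at 73.6 and 73.4 CPM in Ctrl and 118 and 123 CPM in PRMT3-KD and rose by 0.71 (SE 0.0708, adjusted p = 0.0172). TSC1, which with TSC2 restrains mTORC1, rose by 0.62 (SE 0.0903, adjusted p = 0.0244) from 33.0 and 31.7 CPM to 51.7 and 47.3 CPM. The mTORC1 subunit genes MLST8 and RPTOR fell, MLST8 from 47.0 and 47.4 CPM to 28.7 and 29.8 CPM (-0.69, SE 0.0807, adjusted p = 0.0193) and RPTOR by 0.34 on the log2 scale (adjusted p = 0.0495), a call that DESeq2 and limma-voom did not give. mTORC1 is known to phosphorylate and hold back the ULK1 complex, and AMPK to activate it. MTOR itself had a log2 fold change of 0.02 (adjusted p = 0.891), with overlapping groups.

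Among 18 organelle-selective receptors and scaffolds, WDFY3 rose and BNIP3 fell, where 17.3% of all genes passed in either direction. WDFY3 (ALFY), a scaffold that brings p62-bound aggregates to the autophagy machinery, was at 81.4 and 82.8 CPM in Ctrl and 154 and 164 CPM in PRMT3-KD (0.95, SE 0.0742, adjusted p = 0.0142). BNIP3, a mitochondrial receptor and known target of HIF1A, fell by 0.42 (adjusted p = 0.0374) from 96.1 and 90.1 CPM to 71.5 and 67.5 CPM. Of 8 transcription factors, TFEB and MITF passed, both higher (background 8.39%). Their log2 fold changes were 0.55 (adjusted p = 0.0472) and 0.44 (adjusted p = 0.0393). TFEB was low, at 7.94 and 8.07 CPM in Ctrl and 11.6 and 11.8 CPM in PRMT3-KD, and the groups did not overlap. In this list DESeq2 called 1 gene and limma-voom 2, all higher, and both tools called MITF and not TFEB. FOXO3 and TFE3 had values of -0.24 and -0.15 and did not pass.

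**Figure D4:**
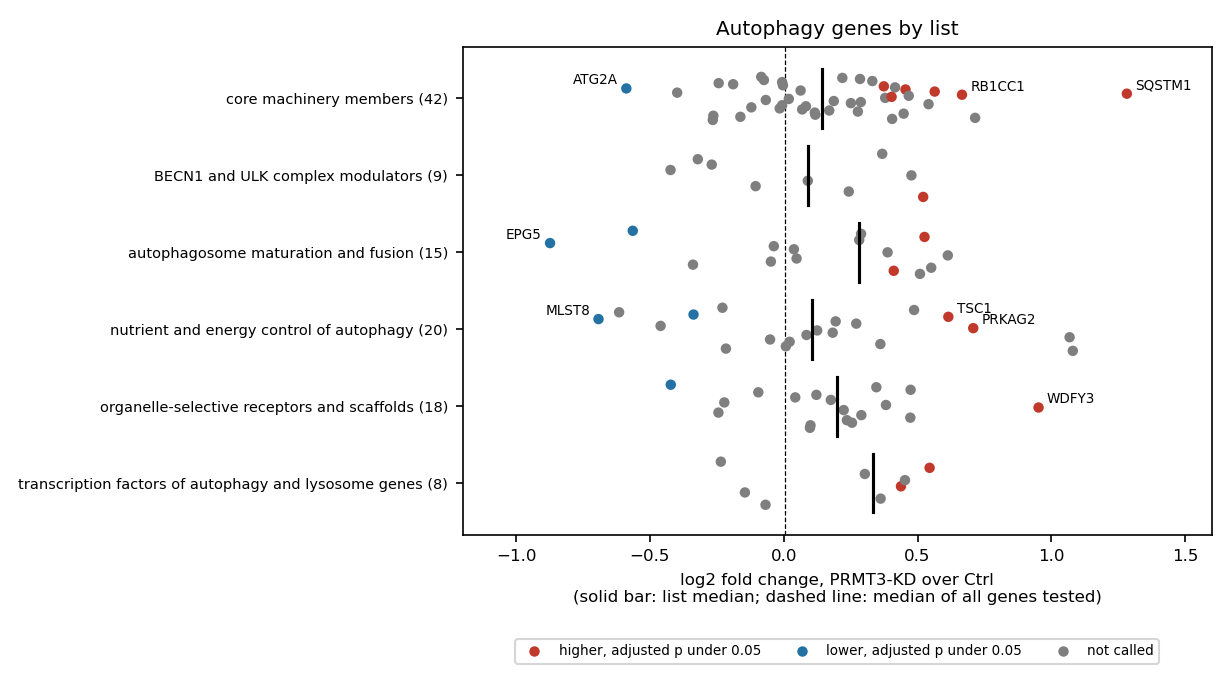
Log2 fold change of PRMT3-KD over Ctrl (x axis) for each tested gene of the core machinery and of 5 lists of related genes (y axis, number tested in brackets); red and blue points have an adjusted p under 0.05, grey points do not, bars are list medians and the dashed line is the median of all genes. List medians lie between 0.09 and 0.33, every list but that of the transcription factors and that of the complex modulators has called genes on both sides, and the labelled genes also passed 1.5-fold.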

How the data were processed

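Total RNA of U251 cells was sequenced. Per the study's methods and the submitters' processing notes, reads were aligned to hg19 with TopHat and counted per gene with Cufflinks, and the notes also list CASAVA and DESeq2. Versions, the gene annotation, any filter on genes and the use of strand are not given in the sources used here. The authors deposited raw counts per gene, whole numbers without normalization, and these were used as they stand after removal of 1 duplicate among 15576 entries.

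The test was edgeR's quasi-likelihood test (edgeR 4.0.16, R 4.3.3; glmQLFit, glmQLFTest) of PRMT3-KD over Ctrl, with 2 libraries each. The filter filterByExpr (count of 10, total of 15) left 13172 genes, TMM factors ran from 0.955 to 1.02, and the Benjamini-Hochberg adjustment covered all of these genes. An adjusted p under 0.05 was a call, and calls over 1.5-fold are given beside. The SE is the size of the log2 fold change divided by the root of F. Totals from 24804250 to 29756313 reads limit the precision of genes with few reads. With 2 libraries in each group an exact permutation test has a smallest p of 0.333, so p-values come from the model.

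Members and lists were chosen with earlier results of these data known. Every member is accounted for, with values per library for called genes, the ATG8 family and the receptors. From the lists, genes with a call and over 1.5-fold were to be named, at most 5 in each direction per list. The other called genes of the lists, the SNARE genes, MTOR, FOXO3 and TFE3 were named after their values were seen.

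Positions, transcript lengths, overlaps, promoters and 3′ UTRs came from GENCODE 44 lifted to GRCh37, which held all 44 members and 99.9% of the identifiers, with Python 3.11.15, pandas 2.3.3 and NumPy 2.4.6. Level per kilobase is CPM over the length of the canonical transcript.

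The alternatives were DESeq2 1.42.0, limma-voom (limma 3.58.1) with a weight per group, upper-quartile scaling, DESeq2 size factors, library totals only, at least 1 count in any library, at least 10 counts in every library, a replicate block, a 2-fold threshold and leaving out each library. The edgeR step was tested on simulated data.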

Additional observations from a re-analysis of the deposited data

How the results depend on the processing

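SQSTM1, RB1CC1 and TAX1BP1 kept their direction and an adjusted p under 0.05 in all 8 alternatives that used all 4 libraries, with SQSTM1 between 1.26 and 1.29 (log2). Library totals only gave 3 higher members, and 5 higher and 3 lower genes of the lists (background 13.1% in either direction). With limma-voom, 12 genes of the lists were higher and 3 lower (background 21.7% in either direction). Library totals only ended the calls of AMBRA1 (adjusted p = 0.093), MAP1LC3B (0.0505) and TECPR1 (0.103). At the 2-fold threshold 1 member remained, SQSTM1. Of the other members, ULK2 changed sign with library totals only (-0.018), and ATG4D with DESeq2 (0.00019), upper-quartile scaling (0.00038) and DESeq2 size factors (0.00021), all near 0. The cause of these shifts was not tested.

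The labels give the groups the same replicate numbers. The correlation of deviations between same-numbered libraries was 0.0379 (2 pairs). The Ctrl libraries, however, differed by little more than counting error (chi-square per degree of freedom 1.41), which leaves little to correlate. A value near 0 therefore cannot decide whether the numbers pair the libraries. With the replicate block, 3 members were higher and 0 lower by edgeR (7.14%), and 4 genes of the lists were higher and 2 lower. Of all 13172 genes tested, 1656 were called in this fit. At an unadjusted p under 0.05 there were 13 members (31%), against 33.3% of all genes. The calls that ended were those of ATG2A (log2 fold change -0.589, adjusted p = 0.0519), AMBRA1 (0.453, 0.0754), TECPR1 (0.401, 0.079) and MAP1LC3B (0.373, 0.0856), where the log2 fold changes without the block were -0.588, 0.455, 0.403 and 0.374.

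With a library left out, the lone library of a group is assumed to vary like the other group, and the counts followed whichever group remained whole: 0 to 22 higher members, 0 to 9 lower members, 0 to 6 members past 1.5-fold, 0 to 39 higher and 0 to 19 lower genes of the lists, and 0 to 8851 genes in all. The 0 counts came without Ctrl library 1 or 2, where 5 and 4 members had an unadjusted p under 0.05. PRMT3 lay between -3.61 and -2.68. The sign depended on the library left out for ATG101 (-0.10 to 0.39), ATG13 (-0.10 to 0.22), ULK2 (-0.16 to 0.17), BECN1 (-0.18 to 0.016), ATG14 (-0.26 to 0.10), ATG2B (-0.029 to 0.37), WDR45 (-0.075 to 0.039), ATG4C (-0.28 to 0.012), ATG4B (-0.13 to 0.10), ATG4D (-0.13 to 0.11), GABARAPL1 (-0.0053 to 0.22), MAP1LC3C (-0.091 to 2.65), OPTN (-0.55 to 0.092) and CALCOCO2 (-0.10 to 0.076).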

Other observations

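The 2 PRMT3-KD libraries differed in genes of the nutrient control and transcription factor lists, which are named here after their values were seen. SESN2, a sestrin that restrains mTORC1, had 375 and 321 reads in Ctrl, 951 in PRMT3-KD library 1 and 453 in library 2. DDIT3 (CHOP), a stress transcription factor, had 487 and 479 reads in Ctrl, 777 in PRMT3-KD library 1 and 411 in library 2. SESN3 had 8513 and 8520 reads in Ctrl, 2790 in PRMT3-KD library 1 and 8320 in library 2. SQSTM1 was farther from Ctrl in PRMT3-KD library 1, by 1.49 against 1.04 on the log2 scale. PRMT3 itself was lower in library 2, with 45 reads against 77. Other transcription factor genes were picked after their values were seen too. FOXO1 (0.31 in library 1, 0.58 in library 2), ATF4 (0.27, 0.33), MITF and TFEB were farther from Ctrl in library 2. FOXO3 (-0.42, -0.07) and TFE3 (-0.22, -0.07) were farther in library 1. A link between these library differences was not tested. By edgeR's adjusted p, SESN2 (0.151), DDIT3 (0.525) and SESN3 (0.399) did not pass.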
